A study of Mus musculus with 1457 samples.

Results

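The Wnt genes described here are 44 of the 36131 genes counted, chosen by symbol from the deposited tables. They were 19 Wnt ligands, 12 receptors (the frizzleds Fzd1 to Fzd10 and the co-receptors Lrp5 and Lrp6), 8 secreted antagonists of the Dickkopf (Dkk) and secreted frizzled-related (Sfrp) families, and 5 nuclear genes, which are the transcription factors Lef1, Tcf7, Tcf7l1 and Tcf7l2 and the pathway target Axin2. In all, 22 of the 44 had a level of at least 10 CPM (a group's summed reads of a gene, scaled by its total reads) in some group together with reads in at least 10% of its cells, and these are described below. The rule used symbols and no measured value, but it was set with earlier results of these data known.

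Wnt ligands are secreted proteins that bind a frizzled receptor, with LRP5 or LRP6 where the signal runs through beta-catenin, which then acts in the nucleus with TCF and LEF factors. Other Wnt signals, typically of WNT5A and WNT11, use frizzleds without beta-catenin and steer cell polarity and movement. Dickkopf proteins bind the LRP co-receptors and Sfrp proteins bind the ligands, so both limit the signal outside the cell. In the aorta-gonad-mesonephros region (AGM) of the mid-gestation embryo, endothelial cells of the dorsal aorta turn into blood stem and progenitor cells, and Wnt signalling is known to bear on that step.

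Single cells of the AGM of ICR mouse embryos were sorted by flow cytometry and sequenced one by one with Smart-seq2, a full-length method without molecular identifiers. The 1457 cells fell into 19 groups by title, stage, sort and genotype. All sorted cells were TER119- and CD45-, all but Mes were CDH5+, and the endothelial (Endo) and hemogenic endothelial (HE) sorts were also CD41- and KIT-. HE carried a reporter of Gfi1 or of Runx1b, both genes of the switch to blood, and Endo lacked it. Cells in endothelial-to-hematopoietic transition (EHT) were CD41+ KIT+ GFI1+ GFI1b-, intra-aortic hematopoietic cluster cells (IAHC) were the same but GFI1b+, and mesenchymal cells (Mes) were CDH5- RUNX1b+.

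Every cell carried at least 1 reporter allele, so no group was wild type. In the line Gfi1:Tomato/WT Gfi1b:GFP/WT, E10.5 gave 74 Endo, 95 HE, 41 EHT and 42 IAHC cells, and E11.5 gave 16 Endo, 40 HE and 22 IAHC cells. A further 41 Endo, 43 HE and 42 EHT cells of that line are titled E11.5 while their stage field says E10.5, and they are called titled E11.5. The double reporter homozygote Gfi1:Tomato/Tomato Gfi1b:GFP/GFP gave 42 HE cells at E10.5. In the line Runx1b:RFP/WT, E10.5 gave 53 Endo cells, HE cells that made up 17.98% of all cells sequenced and Mes cells that made up 7.344%, and Runx1b:RFP/RFP gave 91 Mes cells. Another HE group, 19.01% of all cells, is titled KO while its genotype field reads Runx1b:RFP/WT, and it is called titled KO. The sorts by ACE (CD143) came from Gfi1:Tomato/WT embryos at E10.5, with 14 ACE- GFI1- cells (used as Endo), ACE+ GFI1- cells (7.962% of all cells) and 39 ACE+ GFI1+ cells (used as HE).

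Cells are not replicates and no label ties a cell to an embryo, so each group counts as 1 sample, whose reads were summed and divided by the group's total to give CPM. Sums ran from 14577594 to 199887490 reads, with a median of 598000 reads per cell and a lowest cell of 12 reads. Fewer cells expressing a gene and less RNA per cell cannot be told apart in such sums. Among heterozygous HE cells of the Runx1b line, 50% had at least 10 of 20 pan-endothelial genes detected, and the others carried mesenchymal, smooth muscle or globin reads. In the E11.5 IAHC group, 14 of 22 cells had more than 1% globin reads and 8 of 22 passed the same endothelial measure, so that many cells of both groups had RNA at odds with the gate. In E10.5 IAHC, 12 of 42 cells lay near the limit of that measure, with 8 to 11 of the 20 genes, and in every other group at most 1 cell did.

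The start regions of 4 genes are shown first, each with 250 bases before and 50 after the RefSeq start (GRCm38.p6). These genes were picked from these data, as their levels differed the same way between HE and Endo in 4 sort pairs. None of the 4 passed the main edgeR test of HE against Endo. Capitals mark matches, on either strand, to the RUNX letters TGNGGT or the TCF/LEF letters CTTTGNT.
Dkk2, chr3:132085042-132085341, plus strand: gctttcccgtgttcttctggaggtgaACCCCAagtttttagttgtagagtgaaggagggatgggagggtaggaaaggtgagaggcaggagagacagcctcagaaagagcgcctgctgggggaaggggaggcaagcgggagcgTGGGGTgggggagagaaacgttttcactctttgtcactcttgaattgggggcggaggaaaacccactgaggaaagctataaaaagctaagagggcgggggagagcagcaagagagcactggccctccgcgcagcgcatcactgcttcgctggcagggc
Sfrp2, chr3:83766071-83766370, plus strand: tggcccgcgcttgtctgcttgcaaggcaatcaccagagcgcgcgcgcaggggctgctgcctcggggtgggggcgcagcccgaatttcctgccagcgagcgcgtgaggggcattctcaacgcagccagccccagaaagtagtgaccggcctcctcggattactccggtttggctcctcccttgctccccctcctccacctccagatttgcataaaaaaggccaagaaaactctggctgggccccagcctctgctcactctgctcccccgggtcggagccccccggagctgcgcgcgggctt
Wnt11, chr7:98834862-98835161, plus strand: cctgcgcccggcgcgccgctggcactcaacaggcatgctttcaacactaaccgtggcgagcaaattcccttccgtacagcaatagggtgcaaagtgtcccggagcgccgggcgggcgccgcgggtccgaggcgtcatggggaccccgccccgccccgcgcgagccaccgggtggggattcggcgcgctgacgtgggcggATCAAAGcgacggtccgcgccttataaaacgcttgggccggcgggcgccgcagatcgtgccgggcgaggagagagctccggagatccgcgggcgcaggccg
Fzd10, chr5:128600856-128601155, plus strand: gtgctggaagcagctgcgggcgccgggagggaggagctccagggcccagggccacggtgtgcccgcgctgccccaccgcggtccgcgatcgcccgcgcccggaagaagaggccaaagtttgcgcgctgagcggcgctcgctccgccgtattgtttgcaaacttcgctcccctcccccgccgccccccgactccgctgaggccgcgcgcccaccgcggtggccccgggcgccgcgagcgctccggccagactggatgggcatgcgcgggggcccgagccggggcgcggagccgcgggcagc
The Dkk2 window held 2 RUNX matches, the Wnt11 window shown held 1 TCF/LEF match, and neither set of letters was found in the Sfrp2 and Fzd10 windows. The Fzd10 window follows the RefSeq start and begins after the GENCODE start of the gene (128600844), so bases before that start are not covered. A second Wnt11 start (chr7:98838595-98838894), not shown, had 3 RUNX matches and no TCF/LEF match. Among 32851 mouse promoters of the same length, 45.8% held a RUNX match and 18.6% a TCF/LEF match. Promoters were at hand for 30 members, 38 windows in all, of which 21.1% held a TCF/LEF match. A match is letters in a window and says nothing of binding.

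Ligand levels were highest in Mes, lower in HE and lowest in IAHC. The 19 ligands summed to 129.02 CPM in the heterozygous Mes cells and 92.05 CPM in the Runx1b:RFP/RFP Mes cells, to 20.1 to 77.1 CPM in HE, to 8.71 to 15.7 CPM in Endo, and to 3.72 and 3.16 CPM in E10.5 and E11.5 IAHC. Wnt11 was the ligand with the most reads in 6 of the 7 HE groups, and Wnt5a in both Mes groups. To compare shares of cells at equal depth, each cell was thinned to 100000 reads, which 51 cells did not reach. In thinned cells, at least 1 ligand was read in 28 of 37 ACE+ GFI1+ cells (75.7%, 95% Clopper-Pearson interval 58.8 to 88.2%), against 13 of 73 E10.5 Endo cells (17.8%, 9.84 to 28.5%).

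**Figure D1:**
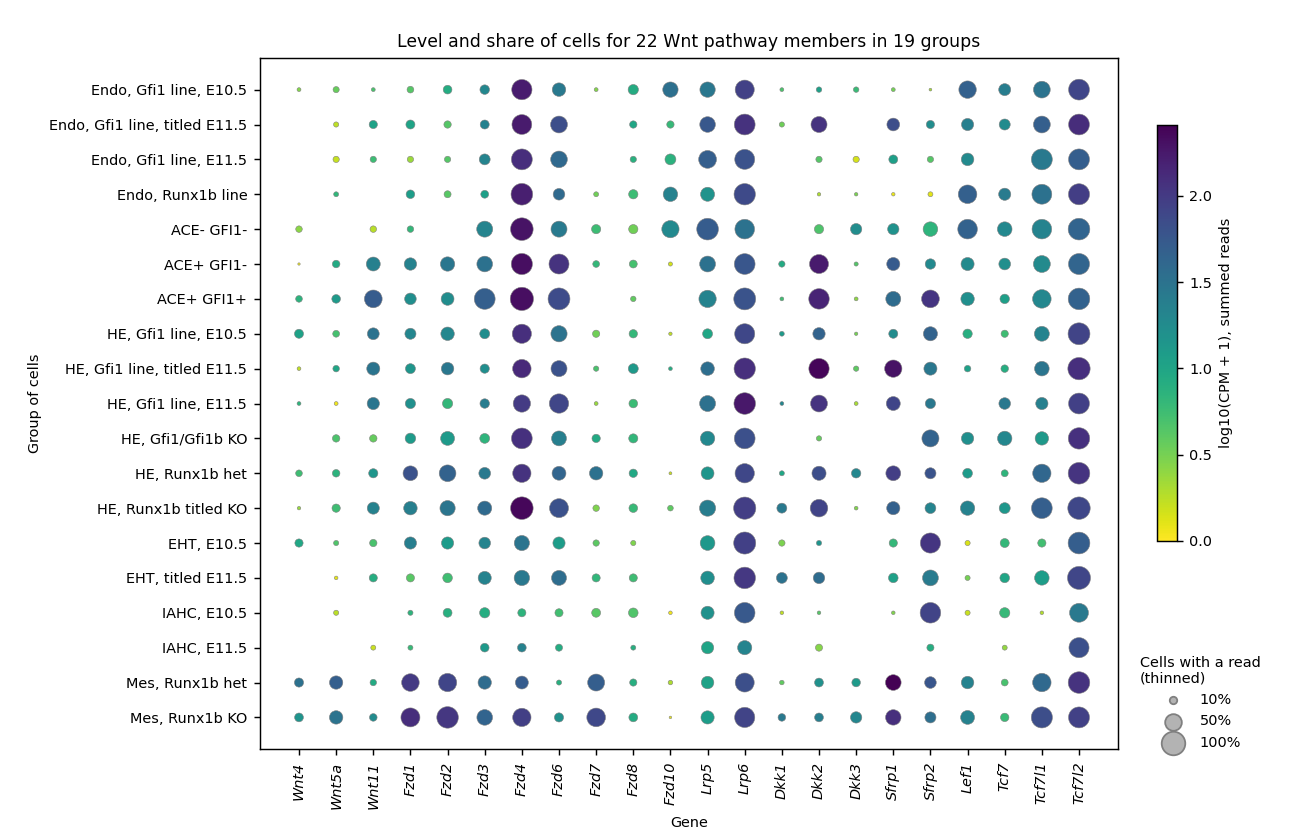
Levels of the 22 described Wnt genes (columns) in the 19 groups (rows). Colour gives log10(CPM + 1) of the summed reads and dot size gives the percentage of cells with a read after thinning to 100000 reads. Fzd4 is strong across Endo and HE rows, and the Mes rows carry Fzd1, Fzd2 and Fzd7.

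Per kilobase of exon, the scale on which genes can be set side by side, Fzd4 led all members in E10.5 Endo with 25.02 CPM per kilobase, followed by Fzd10 with 10.04 and Tcf7 with 9.26. In E10.5 HE the order was Sfrp2 with 20.7, Fzd4 with 17.9 and Dkk2 with 11.8 CPM per kilobase. Sfrp2 alone stood far above the other members in E10.5 EHT, with 50.1 against 6.53 CPM per kilobase for Lrp6, and in E10.5 IAHC, with 38.8 against 3.99 for Lrp6. In heterozygous Mes cells Sfrp1 led with 58.8, followed by Sfrp2 with 26.6 and Fzd1 with 23.8 CPM per kilobase. These are levels in 1 summed sample each.

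The other 22 members were low or read in few cells. Axin2, Fzd5, Fzd9, Wnt2, Wnt2b, Wnt5b and Wnt6 reached 8.997, 5.997, 6.05, 10.1, 3.25, 8.86 and 24.5 CPM in their highest groups, the last in heterozygous Mes cells with reads in 7 cells. Dkk4, Sfrp4, Sfrp5, Wnt7b, Wnt9a, Wnt9b, Wnt10a and Wnt16 stayed at or under 4.50 CPM in every group. Wnt1, Wnt3, Wnt3a, Wnt7a, Wnt8a, Wnt8b and Wnt10b stayed under 1 CPM, and Wnt1 and Wnt3a were read in 1 cell of the 1457 each. Every member had a read in some cell.

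The first comparison asked which Wnt genes distinguish HE from Endo. It rested on 4 sort pairs, namely the Gfi1/Gfi1b line at E10.5, the same line at E11.5, the Runx1b line at E10.5 and the ACE sorts, fitted with edgeR with the pair as a block. Dkk2, Sfrp2, Wnt11, Wnt4, Fzd1, Fzd2, Dkk1, Sfrp1, Fzd6 and Tcf7l2 were higher in HE in 4 of 4 pairs, and Fzd10, Lef1 and Lrp5 were lower in 4 of 4. Of the members read at low levels, Fzd9 was higher and Wnt2b lower in all 4. The share of all genes that ran the same way in all 4 pairs, or did not overlap between the sorts, was not counted. Such patterns below therefore have no background. With 3 residual degrees of freedom none of the 27 members tested passed an adjusted p of 0.05, where 1.4% of the 14553 genes did. Before adjustment 9 of the 27 members had an edgeR p under 0.05, as did 2817 of the 14553 genes. DESeq2 called 8 members higher and 2 lower, with no share of all genes at hand. The members' median log2 difference was 0.75, against 0.09 over all genes tested.

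Dkk2 (ENSMUSG00000028031, chromosome 3, 132085292 to 132180304, GRCm38) encodes the Dickkopf protein DKK2. Its HE and Endo levels were 43.7 and 10.1 CPM in the Gfi1/Gfi1b line at E10.5, 112.2 and 3.28 CPM at E11.5, 67.9 and 0.983 CPM in the Runx1b line, and 146.3 and 3.70 CPM in the ACE sorts. The lowest HE level was above the highest of these Endo levels, and the log2 difference was 4.78 ± 0.75 (SE, edgeR, adjusted p = 0.0531). Among cells with at least 10 pan-endothelial genes it was 4.95 with an edgeR adjusted p of 0.0389, so this call depends on which cells enter.

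Sfrp2 (ENSMUSG00000027996, chromosome 3, 83766321 to 83774316), a secreted frizzled-related protein, had 44.5, 26.9, 61.03 and 107.8 CPM in HE and 1.12, 3.31, 0.271 and 5.90 CPM in Endo, in the same order of pairs. The groups did not overlap, and the log2 difference was 4.99 ± 0.90 (SE, edgeR, adjusted p = 0.0675). With cells of at least 10 pan-endothelial genes it was 4.78 (edgeR, adjusted p = 0.0325). A long non-coding gene, Gm26771, overlaps an Sfrp2 exon on the other strand, and since no strand setting is given its reads cannot be told apart from those of Sfrp2.

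Wnt11 (ENSMUSG00000015957, chromosome 7, 98835112 to 98855195) encodes a ligand known for beta-catenin-independent signals. HE had 30.96, 29.1, 13.2 and 51.1 CPM and Endo 3.96, 4.73, 0.0339 and 0.823 CPM. Again the groups did not overlap, with a log2 difference of 4.67 ± 1.14 (SE, edgeR, adjusted p = 0.117). Fzd1, a frizzled of the beta-catenin route, had 28.3 ± 23.04 CPM in HE and 5.27 ± 4.14 in Endo (SD, n = 4 sums each; log2 difference 2.61 ± 0.48, edgeR adjusted p = 0.0695).

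Fzd10 (ENSMUSG00000081683, chromosome 5, 128600844 to 128604093) ran the other way. This frizzled had 32.6, 6.50, 21.2 and 17.8 CPM in Endo and 0.702, 0, 0.559 and 0.0324 CPM in HE. Every Endo level was above every HE level, and the log2 difference was -6.95 ± 1.38 (SE, edgeR, adjusted p = 0.0794). In E11.5 HE it was read in 0 of 40 cells, and a count of 0 leaves room for 3 such cells, or 7.5%, of cells with a read. Lef1, a factor that carries beta-catenin to its targets, had 45.9, 17.4, 47.1 and 45.3 CPM in Endo and 6.89, 0, 11.6 and 15.5 CPM in HE (log2 difference -2.97 ± 1.46, edgeR adjusted p = 0.336). Its groups did not overlap either, and the fit was far from the threshold.

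**Figure D2:**
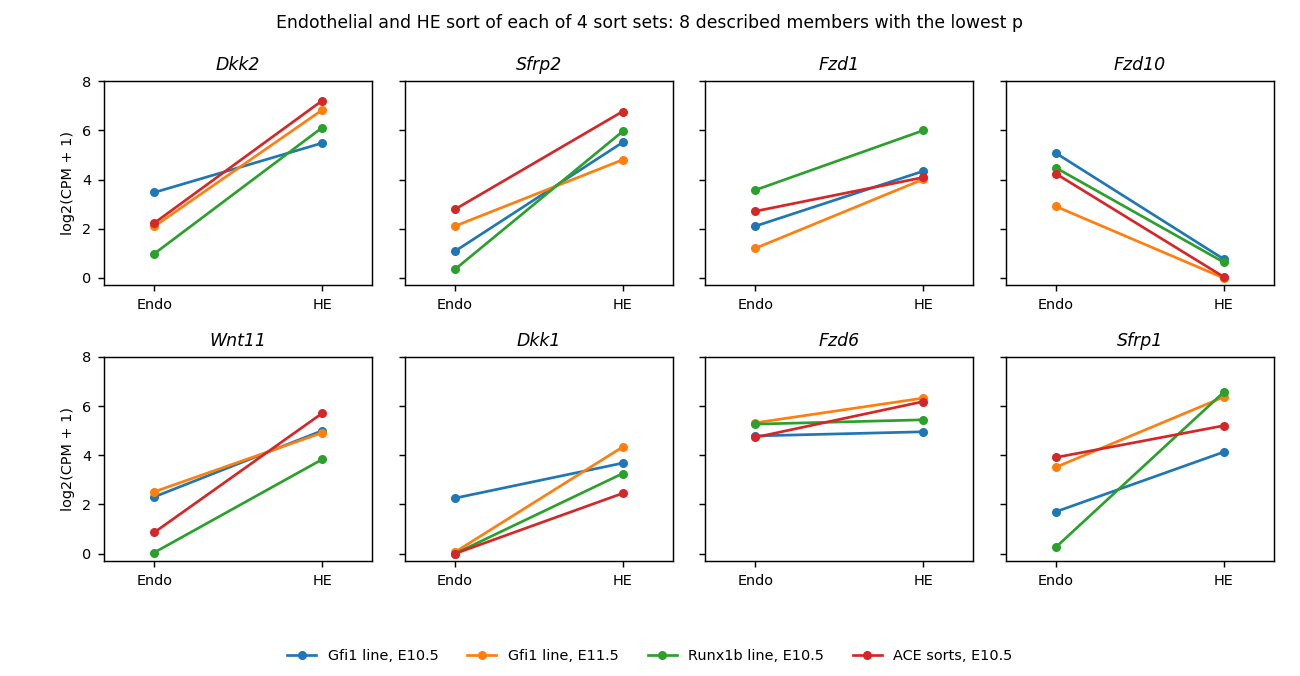
Summed levels of 8 Wnt genes in Endo and HE, as log2(CPM + 1), with 1 line per sort pair. Lines for Dkk2, Sfrp2, Fzd1, Wnt11, Dkk1, Fzd6 and Sfrp1 climb from Endo to HE in all 4 pairs and those for Fzd10 descend in all 4.

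The most abundant receptors differed less between these sorts. Fzd4, which also binds norrin in blood vessels, had 162.4 ± 30.1 CPM in Endo and 135.2 ± 51.3 CPM in HE (SD, n = 4 sums; log2 difference -0.23 ± 0.15, edgeR adjusted p = 0.436). Fzd6, known for tissue polarity, had 32.1 ± 7.05 CPM in Endo and 55.8 ± 23.4 CPM in HE (0.79 ± 0.27, edgeR adjusted p = 0.196). Tcf7l1, a TCF that mostly represses, had 27.2 ± 4.83 and 25.7 ± 10.1 CPM (-0.06 ± 0.28, edgeR adjusted p = 0.936). One more pair, the titled E11.5 sorts, was kept out of the fit because its stage labels conflict. It had 240.5 CPM of Dkk2 in HE and 113.7 in Endo, 27.7 and 16.4 of Sfrp2, and 29.7 and 9.47 of Wnt11. Dkk1, Fzd6 and Fzd10 ran the other way there, with 0 against 2.41, 62.1 against 68.6 and 7.59 against 5.31 CPM, and the Fzd10 reads of that HE group came from 1 of 43 cells. Dkk1 reads were in 1 of 40 E11.5 HE cells and 1 of 39 ACE+ GFI1+ cells. Lrp6 had 63.5 ± 23.7 CPM in Endo and 99.5 ± 53.9 CPM in HE and was higher in HE in 3 of 4 pairs.

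Markers of other cell types also differed between Endo and HE. The summed level of 12 mesenchyme markers was 0.133 to 107.9 CPM in Endo and 40.7 to 4991 CPM in HE, with Runx1b-line HE the highest. The 8 erythroid markers summed to 1.85 to 532 CPM in Endo and 13.003 to 145579 CPM in HE, and 4 globin genes passed the test as higher in HE. The 9 markers of mesonephric epithelium summed to 0.0678 to 27.5 CPM in Endo and 61.1 to 170.2 CPM in HE, and 1 of 3 tested was called higher. In the Gfi1-reporter HE groups 5 or 6 of these 9 genes had no read, so few genes carried the sums. The EHT groups had similar sums, 101.7 and 99.3 CPM. The 7 smooth muscle markers summed to 0.200 to 47.3 CPM in Endo and 65.4 to 6856 CPM in HE, with 1 of 2 tested called higher. Pan-endothelial genes summed to 11143 to 14803 CPM in Endo and 8664 to 23215 CPM in HE. Among cells with at least 10 pan-endothelial genes the log2 differences of Dkk2 and Sfrp2 were 4.95 and 4.78, as given above, and for the other members the part of these cell types was not tested.

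ACE marks a subset of the aortic endothelium, and the 2 sorts without GFI1 ask which Wnt genes go with it. With 1 sum against 1 there is no test, and a gene is called here at 2-fold or more in summed CPM and in the mean per-cell CPM, with at least 5 CPM and reads in 10% of cells on the higher side. ACE+ GFI1- cells had 8 of 20 measurable members higher and 3 lower than ACE- GFI1- cells, where 27.4% of all genes were called. Dkk2 stood at 172.3 against 3.70 CPM (46.5-fold), Wnt11 at 22.7 against 0.823 CPM (27.6-fold) and Fzd6 at 113.5 against 25.5 CPM (4.45-fold). Fzd2, with fewer than 3 reads in the ACE- cells, was at least 136.6-fold higher at 28.1 CPM, and Wnt5a, Fzd1, Sfrp1 and Sfrp2 were higher by 38.04, 3.90, 3.70 and 3.05-fold. Fzd10 was 38.2-fold lower at 0.467 against 17.8 CPM, Dkk3 4.83-fold lower and Lef1 2.60-fold lower. The ACE- group held 14 cells, and Fzd4 was level at 208.9 and 196.5 CPM. The ACE- level of Wnt5a rested on 3 reads in 1 cell, and 91.4% of the ACE- reads of Fzd1 were in 1 cell. Markers of other cell types were also higher in the ACE+ GFI1- cells. Smooth muscle markers summed to 469.2 against 3.36 CPM and mesenchyme markers to 159.5 against 16.8 CPM. Their part in the members' levels was not tested.

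Within ACE+ cells, GFI1+ cells (HE) had 3 of 18 measurable members higher and 1 lower than GFI1- cells, beside 7.9% of all genes. Sfrp2 was 107.8 against 18.01 CPM, 5.98-fold higher. Wnt11 was 51.1 against 22.7 CPM and Wnt4, a ligand best known from kidney tubules, was 6.32 against 0.180 CPM (35.2-fold). Fzd7, with fewer than 3 reads in GFI1+ cells, was at least 55.7-fold lower, from 5.42 CPM. Dkk2 was high in both, at 146.3 and 172.3 CPM.

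Endo cells differed among themselves in the same genes. Gja5, the connexin of arterial endothelium, was read in 55 cells (27.8%) of the 5 Endo groups, and this split was chosen after the data were seen, so it is a description. After thinning, Dkk2 was read in 27 of 55 cells with Gja5 (49.1%, 35.4 to 62.9%) and in 0 cells without (upper 95% bound 2.78%). Wnt11 was read in 9 of 55 (16.4%) and in 0 without. Fzd6 was read in 63.6% against 25.95%. Sfrp1 was read in 23.6% against 5.34% of the pooled cells, but not in every group. It was read in 0 of 16 cells with Gja5 at E10.5. In the ACE- cells it was read in 2 of 9 against 1 of 4, and at E11.5 in 1 of 4 against 1 of 10. Lef1 and Fzd10 went the other way in the pooled cells, at 29.1% against 58.02% and 20% against 38.9%, but not in every group. Fzd4 was read in most cells of both kinds, 81.8% and 75.6%.

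Depth was alike, with medians of 558397 and 597951 reads. Within groups Dkk2 was read in 4 of 16 against 0 of 57 cells at E10.5, 19 of 24 against 0 of 17 in the titled E11.5 group, and 2 of 9 against 0 of 4 in the ACE- cells, all thinned. Fzd10 was read in 2 of 16 against 29 of 57 at E10.5, but in 6 of 9 against 1 of 4 in the ACE- cells and 1 of 4 against 2 of 10 at E11.5. Lef1 was read in 4 of 16 against 36 of 57 at E10.5 and in 7 of 24 against 4 of 17 in the titled E11.5 group. The titled E11.5 Endo group had the most Gja5 cells by number (24, or 58.5%) and the highest Endo level of Dkk2, 113.7 CPM. The ACE- cells had a higher share with Gja5 (9 cells, or 64.3%) but only 3.70 CPM of Dkk2. Split by Nr2f2, which marks veins, Fzd10 was read in 40.1% of thinned cells with it and 11.4% of the 44 without, and Dkk2 in 4.23% and 47.7%. In E10.5 Endo, 36 of 74 cells had Fzd10 reads without Dkk2, 5 had Dkk2 without Fzd10, and 0 had both. Among the 14 ACE- cells, 4 had both, so the 2 genes were not exclusive.

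**Figure D3:**
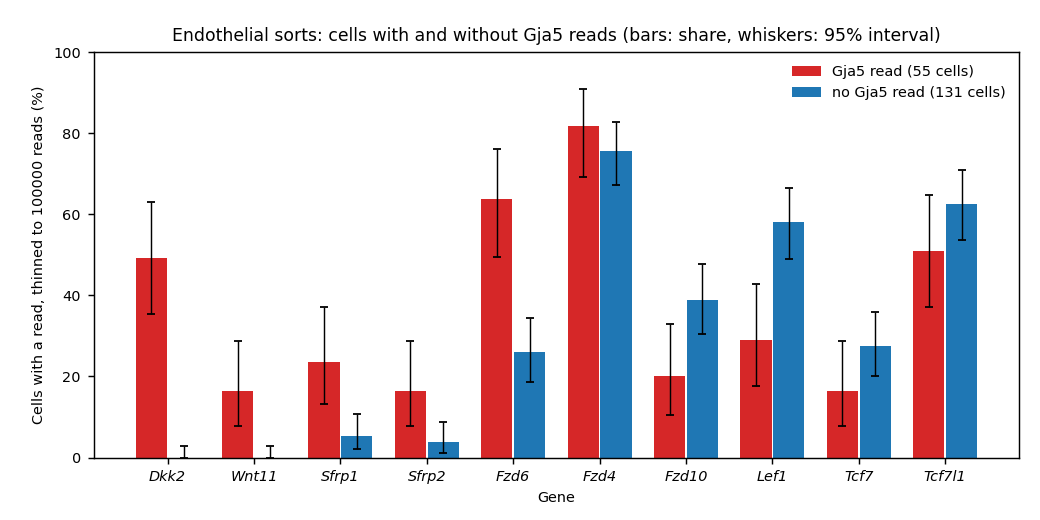
Percentage of Endo cells with a read of each Wnt gene after thinning to 100000 reads, for 55 cells with Gja5 reads and the Endo cells without; whiskers are 95% Clopper-Pearson intervals, which cover counting error only. Dkk2 and Wnt11 bars are at 0 without Gja5 reads, while Fzd4 is near 80% in both.

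The next comparison followed HE cells into EHT and IAHC, in an edgeR fit over 17 sums in 6 sort sets with 7 residual degrees of freedom. In all, 2 of 34 members tested fell from HE to IAHC and none rose, where 562 of 19336 genes were lower (2.91%). Tcf7l1 (ENSMUSG00000055799, chromosome 6, 72626378 to 72789254, minus strand) and Fzd6 (ENSMUSG00000022297, chromosome 15, 39006034 to 39038188) were the 2 called. None of the 34 passed from HE to EHT, where 0.414% of genes did. In that contrast 4 of the 34 members had an unadjusted edgeR p under 0.05, as did 2217 of the 19336 genes. DESeq2 called 5 members lower, with no share of all genes at hand.

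Tcf7l1 had 20.8 CPM in E10.5 HE and 22.6 in E11.5 HE, 4.37 in E10.5 EHT and 10.9 in titled E11.5 EHT, and 0.909 and 0.0116 CPM in E10.5 and E11.5 IAHC. Levels were lower in EHT than in HE and lower again in IAHC, with no overlap between HE and IAHC. The log2 difference of IAHC from HE was -6.02 ± 1.03 (SE, edgeR, adjusted p = 0.0131). In E11.5 IAHC it had fewer than 3 reads, so that its ratio there is a bound, at least 648-fold lower. Its reads were in 2 of 42 and 1 of 22 IAHC cells.

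Fzd6 had 30.005 and 79.05 CPM in E10.5 and E11.5 HE, 11.2 and 35.1 CPM in the EHT groups, and 4.35 and 7.52 CPM in IAHC. IAHC levels were below every HE and EHT level. The log2 difference was -2.53 ± 0.44 (SE, edgeR, adjusted p = 0.0146). Without the E10.5 Gfi1/Gfi1b set the adjusted p was 0.129, and without the heterozygous Runx1b set neither gene was called (edgeR, adjusted p = 0.0516 for Fzd6 and 0.0573 for Tcf7l1).

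Other members had lower levels without passing. Fzd4 had 151.7 ± 56.4 CPM over 6 HE sums, 28.1 ± 1.56 over 2 EHT sums and 13.8 ± 10.8 over 2 IAHC sums (log2 difference of IAHC -2.48 ± 0.69, edgeR adjusted p = 0.084). Dkk2 had 115.7 ± 70.8, 24.9 ± 16.2 and 2.55 ± 1.15 CPM (IAHC -4.85 ± 1.19, edgeR adjusted p = 0.0549). Wnt11 had 29.2 ± 12.6, 5.55 ± 2.29 and 0.302 ± 0.427 CPM. These means are over all sums of a class, while the log2 differences adjust for the sort set, so their sizes can differ. The median log2 difference of IAHC from HE was -1.49 over the members and -0.09 over all genes tested. In the same contrast 16 of 20 pan-endothelial genes fell, and their part in the members' values was not tested.

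Sfrp2 was the antagonist with the most reads in E10.5 EHT and IAHC. It was read in 38 of 95 E10.5 HE cells (40%), 75.6% of 41 E10.5 EHT cells and 80.95% of 42 E10.5 IAHC cells, at 44.5, 107.9 and 83.5 CPM. In titled E11.5 EHT cells it was 25.04 CPM and in E11.5 IAHC cells 7.07 CPM with reads in 2 of 22. The 2 EHT sums and the 2 IAHC sums thus spread widely around the HE levels. Cells with Dkk2 and no Sfrp2 were 20 of 95 in HE, 1 of 41 in EHT and 0 of 42 in IAHC, while cells with Sfrp2 and no Dkk2 were 24, 30 and 33.

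**Figure D4:**
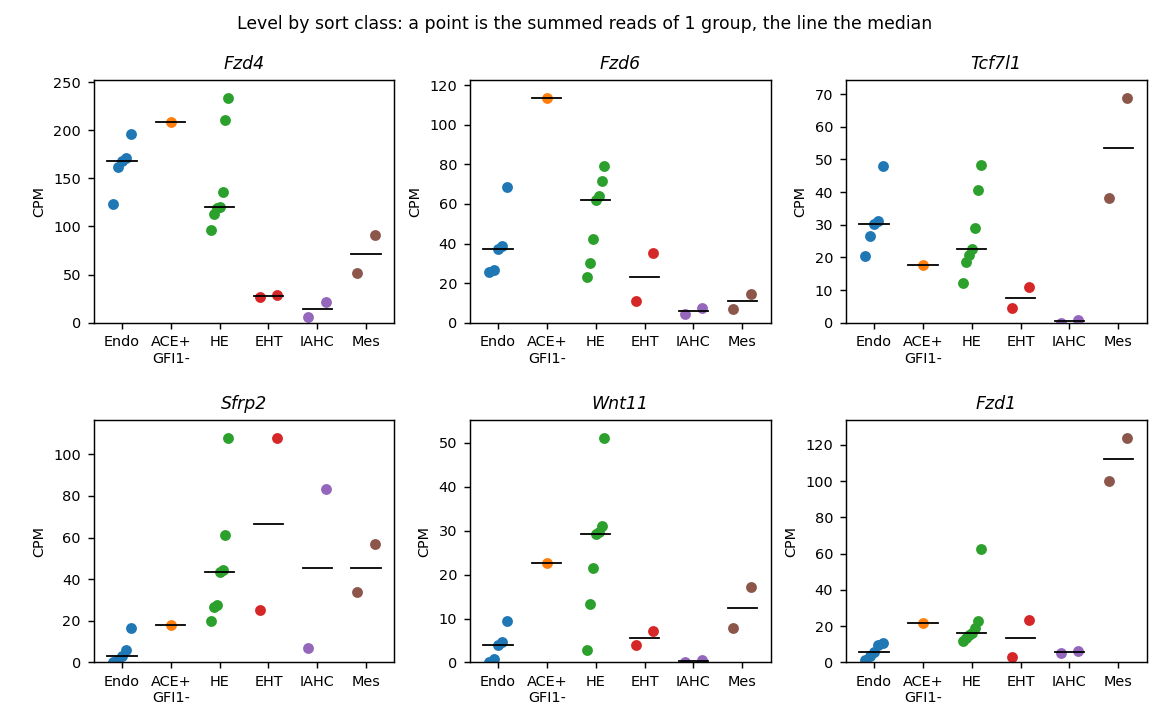
Summed levels in CPM of 6 Wnt genes by sort class, with 1 point per group and a line at the class median. Fzd4 and Tcf7l1 are lowest in the IAHC groups, and Fzd6 is low in both IAHC and Mes. Wnt11 is at or near 0 in both IAHC groups and runs down to 0.0339 CPM in Endo, and Fzd1 is highest in the 2 Mes groups.

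Mes cells had high levels of several ligands, frizzleds and Sfrp1, while Fzd6 was low. Fzd6 was 1 of 34 members that fell from HE to Mes (6.70 and 14.8 CPM in Mes; log2 difference -2.63 ± 0.46, edgeR adjusted p = 0.0322), where 0.884% of genes were lower, and no member rose. The 2 Mes sums were set against the HE sums of their own titles, so Runx1b:RFP/RFP Mes cells were paired with titled-KO HE cells, whose genotype field reads Runx1b:RFP/WT. Its call was lost when any of 4 of the 6 sort sets was left out (edgeR, adjusted p = 0.089 to 0.746), the highest without the heterozygous Runx1b set. Few genes of any kind were called higher in Mes, 2 of 19336, and 0 of 12 mesenchyme markers were. Several high member levels in the 2 Mes sums did not pass either. Fzd1 was 111.9 ± 16.9 CPM against 24.9 ± 18.9 in HE, Wnt5a 39.05 ± 12.7 against 5.97 ± 4.03, and Sfrp1 188.7 ± 96.8 against 78.1 ± 64.2 (SD, n = 2 and 6 sums). These HE means leave the pairing aside. The HE sums of the heterozygous and titled-KO sets had 62.7 and 22.8 CPM of Fzd1. They had 6.24 and 4.65 CPM of Wnt5a, and 93.5 and 45.96 CPM of Sfrp1. Fzd7 and Fzd2 also had their highest levels in Mes. Here 19 of 20 pan-endothelial genes fell.

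The remaining described members can be set out by role, as levels in CPM over all groups of a class with no test beyond those above. Among ligands, Wnt4 ran from 0 to 1.79 over 5 Endo groups, from 0.168 to 9.86 over 7 HE groups and from 13.6 to 32.3 over the 2 Mes groups, with 0 in both IAHC groups. Wnt5a had 0.206 to 5.69 in Endo, 0.163 to 11.8 in HE and 30.1 to 48.001 in Mes. Mes levels of both ligands were above every other group.

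Among receptors, Fzd3 had 10.4 to 22.2 in Endo, 5.94 to 48.3 in HE, 19.9 to 20.5 in EHT, 7.28 to 12.1 in IAHC and 35.7 to 42.7 in Mes. Fzd2 had 0.137 to 7.39 in Endo, 5.55 to 44.7 in HE and 81.6 to 105.9 in Mes, and Fzd8 stayed within 1.94 to 12.1 over all groups, with its EHT and IAHC levels below its Mes levels. Lrp5, a co-receptor, had 13.96 to 55.9 in Endo and 9.11 to 16.1 over EHT and IAHC. Mes levels of Fzd2 were above those of every other group.

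Among the nuclear factors, Tcf7l2 was read at 26.2 to 125.7 CPM in all 19 groups. Its EHT levels of 48.8 to 79.8 and IAHC levels of 26.2 to 66.02 CPM were below its Mes levels of 87.3 to 113.01 CPM, while the Endo and HE ranges overlapped. Tcf7 had 0.178 to 24.9 in Endo, 4.65 to 26.8 in HE and 1.46 to 5.30 in IAHC. Lef1 had 0.388 and 2.19 in the EHT groups and 0 and 0.593 in the IAHC groups, against 20.96 and 21.4 in Mes. Dkk3, a divergent Dickkopf, had 11.8 and 19.2 in Mes and at most 0.531 in EHT and IAHC.

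The Mes sort was mixed. In 17 Mes cells (8.59%) at least 10 pan-endothelial genes were read, and these had 101.96 CPM of Fzd6 and 81.9 of Wnt11 against 2.24 and 5.82 CPM in the others, but 0 against 66.8 CPM of Fzd7. Another 12 cells had reads of at least 2 of 5 genes of the coelomic lining, the epithelium of the body cavity. They had 178.02 CPM of Wnt4 against 12.9 in the other Mes cells, and 120.1 CPM of Wnt6 against 9.15. Wnt4 was read in 9 of the 12 and Wnt6 in 4 of the 12, so a small number of cells held much of the Mes reads of both ligands.

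Knockout and heterozygous cells were compared in both reporter lines, with 1 sum against 1 and no test. Gfi1 reads stood at 55.2 CPM in E10.5 HE and 218.9 CPM in the HE cells labelled Gfi1:Tomato/Tomato Gfi1b:GFP/GFP, with reads in 40% and 88.1% of cells, and Gfi1b reads at 52.1 and 91.6 CPM. The reads of both genes were thus not lower in the labelled knockout, so its label cannot be read as loss of RNA. The labels do not say which part of each gene the reporters replace, and these reads cannot show whether the protein was lost. Runx1 reads stood at 17.8 CPM in heterozygous HE and 1.47 CPM in titled-KO HE, and at 35.3 and 20.1 CPM in heterozygous and Runx1b:RFP/RFP Mes cells. Reads per gene do not separate the Runx1b isoform.

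The HE library labelled Gfi1:Tomato/Tomato Gfi1b:GFP/GFP, whose Gfi1 reads were not lower, was set against the heterozygous HE of E10.5. There 13.3% of all genes were called. Of 19 measurable members, 4 were higher and 5 lower in the labelled knockout. The lower ones included Dkk2, at 2.69 against 43.7 CPM (16.2-fold), Wnt11, at 2.75 against 30.96 CPM (11.3-fold), and Sfrp1, at 0.392 against 16.5 CPM (42.1-fold). Wnt4 and Fzd3 were lower by 58.6 and 2.75-fold. Sfrp2 stood at 43.7 and 44.5 CPM and Fzd4 at 119.3 and 120.3 CPM, level in both. Tcf7, the factor TCF1 of early blood and T cells, was 4.06-fold higher at 18.9 against 4.65 CPM, and Fzd5, Fzd7 and Lrp5 were higher by 4.41, 3.45 and 2.14-fold. Reads of both Dkk2 and Sfrp2 were in 2 of 42 cells labelled knockout and of Sfrp2 alone in 19, against 14 and 24 of 95 heterozygous cells.

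For comparison, E10.5 EHT and IAHC also had more Sfrp2 than Dkk2, but less Fzd4 than either HE group. Globin-rich cells were in both groups, and without them the log2 ratio of Dkk2 was -4.22 against -4.02 with them. Hematopoietic markers summed to 472 CPM in the labelled knockout HE and 215.8 CPM in the heterozygous HE.

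In titled-KO HE of the Runx1b line, 1 of 20 measurable members was higher and 5 lower than in heterozygous HE, beside 12.2% of all genes. Dkk1, the founding Dickkopf, was 26.1 against 8.57 CPM. Fzd7 was 1.94 against 31.5 CPM, Dkk3 1.85 against 18.7, Sfrp2 19.9 against 61.03, Fzd1 22.8 against 62.7 and Sfrp1 45.96 against 93.5 CPM. Fzd7, Fzd1 and Sfrp2 were also high in the heterozygous HE cells with few endothelial genes, which had 55.7 CPM of Fzd7, 98.1 of Fzd1 and 89.5 of Sfrp2, against 3.80, 22.3 and 28.5 CPM in those with at least 10. In the titled-KO group 97.8% of cells had at least 10. Compared over such cells alone, 2 members were called and the Fzd1 ratio was 0.02 on the log2 scale.

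**Figure D5:**
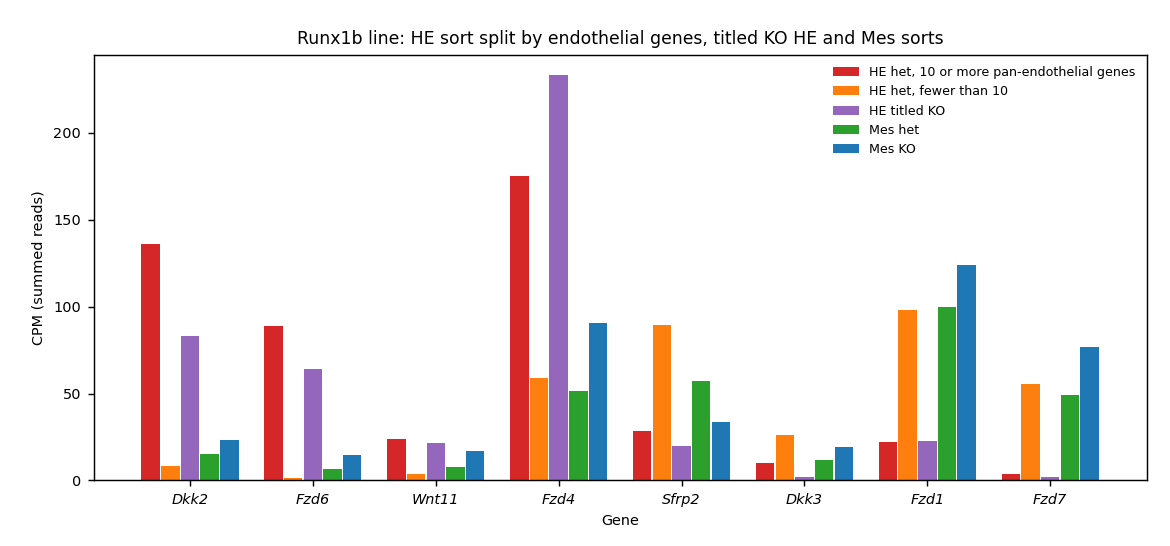
Levels in CPM of 8 Wnt genes in Runx1b-line cells: heterozygous HE with at least 10 and with fewer than 10 pan-endothelial genes, titled-KO HE, and both Mes groups. Dkk2, Fzd6 and Wnt11 are low in the HE cells with few endothelial genes. Dkk2 and Fzd6 are low in Mes too, while Wnt11 has 7.88 CPM in heterozygous and 17.1 CPM in Runx1b:RFP/RFP Mes, against 21.4 CPM in titled-KO HE. Fzd1 and Fzd7 are high both in those HE cells and in Mes.

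In Mes, Runx1b:RFP/RFP cells had 3 of 23 measurable members higher and 2 lower than heterozygous cells, beside 9.99% of all genes. Dkk1 was again higher, 26.1 against 2.90 CPM (8.99-fold), with reads in 10 and 4 cells. Wnt5b was 8.86 against 2.37 CPM and Fzd6 14.8 against 6.70 CPM, the latter 0.32 on the log2 scale among Mes cells with fewer than 10 pan-endothelial genes. Sfrp1 was 120.2 against 257.1 CPM and Wnt4 13.6 against 32.3 CPM. The coelomic lining markers summed to 40.4 against 102.1 CPM in the same groups, and their part in the Wnt4 levels was not tested.

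Stage was compared within the Gfi1/Gfi1b line, E11.5 against E10.5, again without a test. Endo had 1 of 14 measurable members higher and 4 lower (21.3% of all genes called), HE 4 of 17 higher and 2 lower (22.4%), and IAHC 2 of 9 higher and 5 lower (54.3%). In HE, Dkk2 was 112.2 against 43.7 CPM, Sfrp1 81.5 against 16.5, Lrp5 32.3 against 8.63 and Tcf7 26.8 against 4.65 CPM. Fzd2 was 5.55 against 18.8 CPM, and Lef1 was read in 0 of 40 E11.5 HE cells against 6.89 CPM at E10.5. In Endo, Fzd10 was 6.50 against 32.6 CPM, Lef1 17.4 against 45.9 and Tcf7 0.178 against 24.3 CPM, while Sfrp1 was 10.45 against 2.26. Axin2 was read in 0 of 16 E11.5 Endo cells, which leaves room for 3 such cells, or 18.8%, above the 14.9% with a read at E10.5.

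The IAHC pair included the globin-rich cells named above. Sfrp2 was 7.07 against 83.5 CPM, Lrp6 20.2 against 54.6 and Tcf7l2 66.02 against 26.2 CPM. Without globin-rich cells the Lrp6 ratio turned to 0.12 on the log2 scale. Erythroid markers summed to 477717 CPM in E11.5 IAHC and 5.77 CPM in E10.5 IAHC.

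Among other genes of the pathway, in 5 lists of 7 to 15 genes, few passed. Tnfrsf19, a known Wnt target, was the 1 of 5 feedback and target genes tested that fell from Endo to HE, at 33.3 ± 24.4 against 1.66 ± 1.61 CPM (SD, n = 4 sums; log2 difference -4.32 ± 0.53, edgeR adjusted p = 0.046). No gene of the other lists was called there, out of 8 for secretion and extracellular regulators, 10 co-receptors, 15 of the beta-catenin route and 6 of planar polarity. Cthrc1, a secreted binder of Wnt and frizzled proteins, had 0 reads in both EHT sums and both IAHC sums, against 19.6 ± 9.96 CPM in HE, and was called lower in both (edgeR, adjusted p = 0.0306 and 0.00405).

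From HE to IAHC, where 2.91% of all genes and 16 of 20 pan-endothelial genes fell, 6 pathway genes fell, which were 2 of 13 for secretion and extracellular regulators, 3 of 11 co-receptors and 1 of 15 of the beta-catenin route, with 0 of 6 feedback genes and 0 of 7 of planar polarity. The co-receptor pair Reck and Adgra2, which lets brain endothelium sense WNT7, went from 63.7 ± 21.5 to 3.56 ± 4.59 CPM and from 79.9 ± 28.9 to 11.9 ± 9.20 CPM (SD, n = 6 and 2 sums; log2 differences -4.32 ± 0.99 and -2.59 ± 0.39, edgeR adjusted p = 0.0424 and 0.00843). Ctnnb1, the beta-catenin gene, fell from 1044 ± 239.01 to 259.9 ± 48.7 CPM (log2 difference -1.35 ± 0.21, edgeR adjusted p = 0.00937). Rspo3 and its receptor type Lgr6 were the others beside Cthrc1, with means of 6.34 and 7.11 CPM in HE and 0.00581 and 0 CPM in IAHC. The HE means here are over all HE sums, while the log2 differences adjust for the sort set, so their sizes can differ. From HE to Mes none of the pathway lists had a call. Beta-catenin also acts in endothelial junctions, so its level is no measure of the signal.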

How the data were processed

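The authors deposited 2 tables of raw read counts per gene, for 1288 and 169 cells; per the submitters' processing notes, the tools were R 3.6.2, bcl2fastq, the aligner STAR 2.4.2a and the counter HTSeq 0.6.1p1, on GRCm38. The strand setting is not given in the sources used here. Genes of both tables were kept, 36131, without 1 row cut short in the larger table; 10.1% of the ACE table's reads fell outside them.

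Counts were summed per group by title and labels. HE was tested against Endo over 8 sums in 4 sort sets (14553 genes, 3 residual degrees of freedom), and EHT, IAHC and Mes against HE over 17 sums in 6 sets (19336 genes), with edgeR 4.0.16 (filterByExpr, TMM, quasi-likelihood test, sort set as block, Benjamini-Hochberg over all genes, threshold 0.05); the fit was tested on simulated data. The block comes from the shared reporter line, sort scheme and stage, not from replicate numbers; the Runx1b groups form 2 sets by title, the second pairing titled-KO HE (genotype field Runx1b:RFP/WT) with Runx1b:RFP/RFP Mes. Alternatives were DESeq2 1.42.0, other scaling and filtering, thinned cells, subsets of cells and each set left out. The 8 single pairs had no test. No doublets were removed and no cell was filtered from the sums. Nothing says that groups came from separate embryos, so p-values measure the spread between these sums. Intervals cover counting error only, since reads are not unique molecules.

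Described members had at least 10 CPM and reads in 10% of cells in some group, or passed a test. The members and lists were chosen with earlier results of these data known. Gene positions are from GENCODE (GRCm38) and promoters from RefSeq (GRCm38.p6). Genes on the other strand overlap exons of Axin2, Fzd5, Fzd6, Lef1, Sfrp2, Tcf7l1, Wnt5a, Wnt7b and Wnt11, whose reads cannot be told apart from theirs.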

Additional observations from a re-analysis of the deposited data

Results flagged for a closer look

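In each of 41 sets of groups of one class, the highest or lowest level was compared with the others, and chance alone marks about 1 in 20 such sets. Dkk2 at 113.7 CPM and Sfrp1 at 68.6 CPM in the titled E11.5 Endo group stood far above the other 4 Endo groups. In Runx1b-line heterozygous HE, Dkk3 at 18.7 CPM, Fzd1 at 62.7 CPM and Fzd7 at 31.5 CPM stood far above the other 6 HE groups. Fzd10 at 7.59 CPM in titled E11.5 HE stood above the other HE groups, from 1 of 43 cells.

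Tcf7 had log2 ratios of E11.5 to E10.5 of -7.10 in Endo, 2.52 in HE and -1.86 in IAHC. The directions differed between the sorts, with 1 sum for each sort and stage, and the difference was not tested. Endo reads came from 1 of 16 cells at E11.5 and 21 of 74 at E10.5.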

How the results depend on the processing

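Counts of members called depended on the processing. For the alternatives the share of all genes called was not taken, so their counts have no background. From Endo to HE, 0 were higher; DESeq2 gave 8, the fit with no replicate block 2, thinned cells 3, cells with at least 10 pan-endothelial genes 2, cells without globin-rich ones 1, and leaving out each set 0 to 1 (1 without the E10.5 Gfi1/Gfi1b set). Of 0 lower, DESeq2 gave 2 and thinned cells 1. From HE to EHT, 0 were lower; DESeq2 gave 5, thinned cells 2 and leaving out each set 0 to 3 (3 without the E11.5 set). From HE to IAHC, 2 were lower; DESeq2 gave 12, thinned cells 7, and leaving out each set 0 to 4 (1 without the E10.5 set, 4 without the E11.5 set, 0 without the heterozygous Runx1b set). From HE to Mes, 1 was lower; no replicate block gave 0 and leaving out each set 0 to 2 (2 without the E11.5 set; 0 without the titled E11.5, the heterozygous Runx1b or the Runx1b KO set). In the pairs, IAHC by stage had 7 called and 4 without the top cell, and titled-KO against heterozygous HE had 6 and 2 among cells with at least 10 pan-endothelial genes. On the log2 scale, IAHC by stage turned to 0.12 for Lrp6 without globin-rich cells, and among cells with at least 10 pan-endothelial genes to 0.16 for Lrp6 and 0.046 for Tcf7; Fzd1 in titled-KO HE turned to 0.017 among such cells. Beyond the subsets' own construction the cause was not tested. Of the other recomputed member changes in the fits, 1217 kept direction and side of the threshold, 50 passed it newly and 8 lost it. Groups of 14 to 22 cells limit what a count of 0 can show.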
